A study of Mus musculus with 67 samples.

Results

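The levels of 9 neuronal genes were followed through the bulk RNA-seq table of an intestinal regeneration study. They were Tubb3, Stmn2, Stmn3, Crmp1, Gap43, Basp1, Snap25, Syp and Uchl1. These genes were picked by name as genes that neurons use in their cytoskeleton, growth cones and synapses, and all 9 were among the 29579 genes of the table. The table holds 67 mouse libraries, 49 of organoids in 10 culture conditions and 18 of small intestinal crypts in 9 groups. Expression is given as TPM, a share of each library's transcripts that is already divided by transcript length.

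Organoids were grown from crypts of the proximal small intestine of 6- to 12-week-old mice. ENR medium was made with R-Spondin 1 at 500 ng/mL, Noggin at 100 ng/mL and EGF at 50 ng/mL. The 8C medium, in which Hyper-organoids grow, had VPA (valproic acid, which blocks histone deacetylases) at 500 µM and EPZ6438 (which blocks the methyltransferase EZH2) at 2 µM. Its other components were 10% conditioned medium with R-Spondin 1, FGF2 (bFGF) at 20 ng/mL, EGF at 50 ng/mL, LDN193189 at 0.2 µM, GSK-3 Inhibitor XV (GSK3iXV) at 0.1 µM and Pexmetinib at 1 µM. The drug arms were 8C (both drugs, n = 7), 8C-E (EPZ6438 left out, so VPA alone, n = 7), 8C-V (VPA left out, so EPZ6438 alone, n = 6) and 8C-VE (neither drug, n = 7). ENR (n = 7) and ENR+VE (VPA and EPZ6438 added, at doses the labels do not give, n = 3) formed the second pair, and bFGF, EGF, GSK3iXV or Pexmetinib was left out of 8C in 3 libraries each. Crypts came from unirradiated mice and from 8-week-old female mice 1, 2, 3 and 5 days after 12 Gy, with or without daily gavage of 40 mg/kg VPA and 0.6 mg/kg EPZ6438, with 2 libraries in each group. The study's legends count some of these groups in mice, but the labels do not tie each library to an animal, so for the other libraries the spread behind the p-values may be technical.

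Outside the nervous system many neuronal genes are held down by the repressor REST, which binds a DNA element called RE1 and brings in corepressors that carry histone deacetylases. Polycomb repressive complex 2, whose catalytic subunit EZH2 methylates histone H3 at lysine 27, keeps another, partly shared, group of developmental and neuronal genes off. The gut epithelium nevertheless has a cell type with a neuron-like secretory apparatus, the enteroendocrine cell, which uses part of the same vesicle fusion machinery as synapses. The question put to the table was how the 9 genes respond to the inhibitors, singly and together.

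The organoids were epithelial by their markers. The summed level of 10 epithelial markers, among them Epcam and Cdh1, ranged from 8906 to 15815 TPM over the libraries of the 6 drug arms, and none of the 10 was called in either comparison of both drugs. Of 12 enteric neuron markers, Hand2 reached at most 0.130 TPM and Nos1 0.0536 TPM over all organoid libraries, and Vip was listed at 0 throughout. The summed level of all 12 enteric neuron markers was nevertheless higher with both drugs, at 7.27 to 27.6 TPM in 8C against 1.42 to 2.28 TPM in 8C-VE and at 7.36 to 8.96 TPM in ENR+VE against 1.86 to 3.44 TPM in ENR. Most of that sum was the receptor gene Ret, at 14.9 TPM on average in 8C and 1.76 TPM in 8C-VE. All 12 together averaged 16.4 TPM in 8C and 1.98 TPM in 8C-VE, so the rest of the sum was also higher in 8C. Markers of fibroblasts and muscle summed to 1.09 to 5.85 TPM in 8C against 0.406 to 2.74 TPM in 8C-VE. In ENR+VE they summed to 3.11 to 3.92 TPM against 0.425 to 2.17 TPM in ENR. The part of neurons, fibroblasts or muscle cells in the members' changes was not tested. The glial regulator Sox10 was listed at 0 in every organoid library. In bulk samples a change in the number of expressing cells and a change in RNA per cell cannot be told apart. Replicate 7 stood apart for Tubb3, which was at 1.08 TPM or less in each of the 4 replicate 7 libraries, and leaving those libraries out kept the number of called genes at 5 for both drugs in 8C.

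Promoters could be read for 6 of the 9 genes from RefSeq (GRCm38.p6, 250 bases before to 50 bases after the start). Shown are 4 of them, because these genes differed most in their response to the drugs. Basp1 and Uchl1 were high with both inhibitors present, whereas Stmn3 and Syp were as high with EPZ6438 alone. CpG dinucleotides, the sites of DNA methylation and a common feature of Polycomb targets, are in capitals, and each strand is read 5′ to 3′. The windows are chr15:25413715-25414014 (minus strand) for Basp1, chr5:66675871-66676170 (plus) for Uchl1, chr2:181314451-181314750 (minus) for Stmn3 and chrX:7638330-7638629 (plus) for Syp.
Basp1: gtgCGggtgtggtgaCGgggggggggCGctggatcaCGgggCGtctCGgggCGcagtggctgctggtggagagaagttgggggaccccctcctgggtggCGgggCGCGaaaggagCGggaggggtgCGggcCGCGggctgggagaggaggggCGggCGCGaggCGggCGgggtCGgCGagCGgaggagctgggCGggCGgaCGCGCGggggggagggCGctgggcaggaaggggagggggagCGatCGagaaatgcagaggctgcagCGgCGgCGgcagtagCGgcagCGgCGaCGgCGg
Uchl1: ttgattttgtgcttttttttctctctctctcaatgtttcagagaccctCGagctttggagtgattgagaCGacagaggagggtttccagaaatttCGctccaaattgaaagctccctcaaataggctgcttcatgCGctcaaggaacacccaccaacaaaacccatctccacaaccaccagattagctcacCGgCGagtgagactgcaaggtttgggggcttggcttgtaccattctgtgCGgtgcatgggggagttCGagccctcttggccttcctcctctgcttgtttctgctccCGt
Stmn3: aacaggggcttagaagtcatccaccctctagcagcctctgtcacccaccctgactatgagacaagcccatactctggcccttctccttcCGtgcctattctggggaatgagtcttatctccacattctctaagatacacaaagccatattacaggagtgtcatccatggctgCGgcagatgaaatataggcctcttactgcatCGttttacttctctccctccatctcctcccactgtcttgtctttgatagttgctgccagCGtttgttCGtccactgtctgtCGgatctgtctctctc
Syp: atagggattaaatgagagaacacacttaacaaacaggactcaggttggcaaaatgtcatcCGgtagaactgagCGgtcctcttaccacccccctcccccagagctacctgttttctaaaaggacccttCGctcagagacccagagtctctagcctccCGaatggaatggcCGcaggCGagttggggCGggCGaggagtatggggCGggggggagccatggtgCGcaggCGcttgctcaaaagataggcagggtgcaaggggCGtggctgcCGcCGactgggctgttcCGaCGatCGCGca

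The Basp1 window held 38 CpG, more than 95.0% of the 32817 promoter windows of this length, against a median of 7 over all windows. Uchl1 held 9, Stmn3 6 and Syp 18, so the joint responders Basp1 and Uchl1 did not share a CpG density. The first of the Crmp1 windows was the richest of the set with 41 CpG, and Tubb3 held 26. The left and right parts of the RE1 element were searched on both strands. The left part TTCAGCACC was in none of the members' windows and in 0.372% of all windows, and the right part GGACAGC was in the first of the Crmp1 windows, not in the second, in the Tubb3 window and in 6.56% of all windows. These matches describe letters in a short window and not binding. An RE1 outside the window would not be seen.

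**Figure D1:**
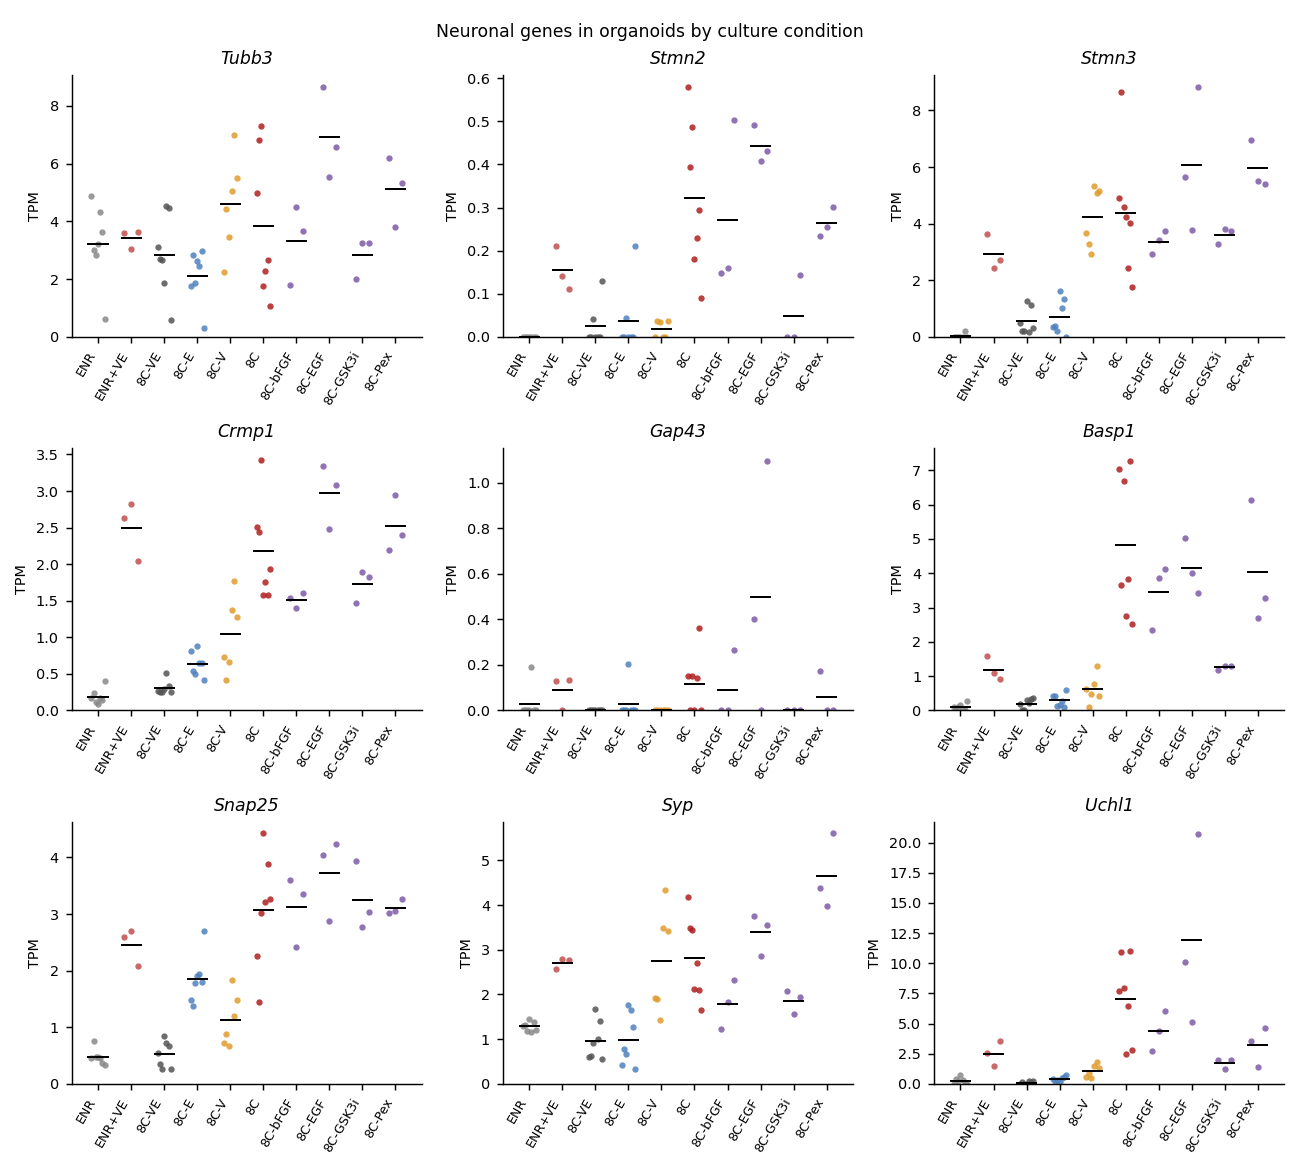
Level (TPM, linear axes) of each neuronal gene in every organoid library by culture condition, with the mean as a bar. Basp1 and Uchl1 stand far above the single-drug arms in 8C and lower without GSK3iXV, Stmn3 and Syp have similar means in 8C-V and 8C, and Snap25 in 8C-E lies above 8C-VE.

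Adding both inhibitors to the 8C base medium raised 5 of the 9 genes at least 2-fold, namely Uchl1, Basp1, Stmn3, Snap25 and Crmp1. After quantile normalization Snap25 (0.96) and Crmp1 (0.87) were short of 2-fold and 3 of the 5 remained called. All were low in absolute terms, from 2.17 TPM on average for Crmp1 to 7.04 TPM for Uchl1 with both drugs. None fell. Of all 12622 genes tested, 9.06% were called higher, and in 9.17% all libraries with the drugs lay above all without, as they did for these 5 genes. Each of the 5 averaged under 1 TPM without drugs and reached the minimum mean of 1 TPM through its libraries with both drugs. In the fit without a minimum the same 5 of the 9 were called, against 5.82% of genes, and the groups did not overlap upward for 7.47%. The test was limma on log2(TPM + 1), so that fold changes of low genes are understated, with a call at a Benjamini-Hochberg adjusted p below 0.05 over all genes and a change of at least 2-fold. Stmn2 and Gap43 did not reach the minimum and were not tested in this comparison.

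Among the cytoskeletal genes, Stmn3, a stathmin that binds free tubulin (chr2:181306459-181314500, mm10), had its lowest, median and highest level at 0.186, 0.318 and 1.27 TPM without drugs. With both drugs the same values were 1.77, 4.22 and 8.64 TPM. The groups did not overlap, and the change was 1.75 ± 0.25 (SE) on the log2 scale, with a limma adjusted p of 6.34e-05. Crmp1, a mediator of semaphorin signalling to the growth cone (chr5:37241940-37292133), went from 0.250, 0.265 and 0.510 TPM to 1.58, 1.93 and 3.42 TPM. These groups did not overlap either, with a log2 change of 1.26 ± 0.15 and a limma adjusted p of 6.89e-06. Tubb3, the neuronal β-tubulin (chr8:123411424-123422015), behaved differently. It was expressed in every condition, at 0.581, 2.71 and 4.53 TPM without drugs and 1.08, 2.65 and 7.30 TPM with them, so that the groups overlapped, with 3 libraries of 8C above the highest of 8C-VE and 1 of 8C-VE below all of 8C. Its log2 change was 0.26 (95% interval -0.47 to 0.98, limma adjusted p = 0.641). The value depended on the replicates, with 0.93 (adjusted p = 0.0091) over replicate numbers 1 to 3 and -0.25 (adjusted p = 0.717) over 4 to 7.

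Stmn2, the stathmin of axon growth (chr3:8509360-8561606), stayed near the floor. It reached 0.0899 to 0.580 TPM in the 7 libraries of 8C and was listed at 0 in 5 of the 7 libraries of 8C-VE, where the highest value was 0.129 TPM. In ENR it was listed at 0 in all 7 libraries, and in ENR+VE it was at 0.211, 0.141 and 0.110 TPM. The stathmin Stmn1, used by dividing cells in general, was at 352 TPM in 8C and 429 TPM in 8C-VE, far above both neuronal stathmins.

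The membrane proteins of the growth cone differed from each other. Basp1, a membrane-bound regulator of actin (chr15:25363277-25413764), was at 0, 0.211 and 0.360 TPM without drugs and at 2.51, 3.83 and 7.29 TPM with both. No library without drugs came within 2 TPM of any library with them, and the log2 change was 2.21 ± 0.21 (limma adjusted p = 7.25e-07). Basp1 also belongs, with Clu, Anxa1 and Cxadr, to the study's signature of revival stem cells, which injury activates. The study reports that signature as lower in Hyper-organoids without VPA and EPZ6438. Gap43, a functional relative of Basp1 (chr16:42248442-42340651), was listed at 0 in 37 of the 49 organoid libraries. It was at 0 in all 7 libraries of 8C-VE and detected in 4 of 7 in 8C, where the highest value was 0.361 TPM. Its highest level, 1.097 TPM, was in 1 library of 8C without EGF.

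Of the synaptic vesicle genes, Snap25, a SNARE protein of the plasma membrane (chr2:136713453-136782428), was at 0.266, 0.550 and 0.852 TPM without drugs and at 1.45, 3.21 and 4.42 TPM with both. The groups did not overlap, with a log2 change of 1.39 ± 0.18 and a limma adjusted p of 1.98e-05. Synaptophysin, encoded by Syp (chrX:7638471-7653256), was at 0.555, 0.914 and 1.67 TPM without drugs and at 1.64, 2.71 and 4.18 TPM with them, and the groups overlapped at their edges. Its log2 change was 0.94 ± 0.19 (limma adjusted p = 0.00113), short of 2-fold on this scale. After quantile normalization of the libraries the Syp change was 0.45, with a limma adjusted p of 0.115. The housekeeping relative of Snap25, Snap23, was at 29.5 TPM in 8C and 29.4 TPM in 8C-VE.

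Uchl1, a ubiquitin hydrolase abundant in neurons (chr5:66676091-66687234), had the largest change of the 9. It was at 0, 0.131 and 0.259 TPM without drugs and at 2.48, 7.68 and 10.99 TPM with both, and the groups did not overlap. The log2 change was 2.72 ± 0.27, with a limma adjusted p of 8.66e-07. An antisense gene, Uchl1os, shares 18.1% of the exonic length of Uchl1 but was listed at 0 in every organoid library. Of the exonic length of Syp, 16.8% is shared with the antisense gene Gm14703, whose highest level over the 6 drug arms was 0.397 TPM. Uchl3, the form of the enzyme found in most tissues, was at 70.4 TPM in 8C and 55.3 TPM in 8C-VE.

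The single drugs separated the genes. VPA alone met the 2-fold criterion for none of the 9 and EPZ6438 alone for Stmn3 only. Of all genes tested, 3.11% were called higher with VPA alone and 2.96% with EPZ6438 alone. Both comparisons use the 8C-VE libraries as controls, and 2 and 3 of the 9 genes respectively reached the minimum level, so most members were too low to enter these tests.

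Snap25 differed with VPA alone. Its lowest, median and highest levels were 1.38, 1.79 and 2.69 TPM in 8C-E, above all libraries of 8C-VE. The log2 change was 0.91 ± 0.14 (limma adjusted p = 4.72e-04), just under 2-fold on the log2(TPM + 1) scale and 1.71 with a pseudocount of 0.1. When VPA was added to EPZ6438, the Snap25 median went from 1.04 TPM in 8C-V to 3.21 TPM in 8C, with a log2 change of 0.92 ± 0.20 (limma adjusted p = 0.00706). EPZ6438 added to VPA gave 0.49 ± 0.18 for the same gene (limma adjusted p = 0.156).

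Stmn3 showed the reverse order. With EPZ6438 alone it was at 2.93, 4.38 and 5.34 TPM, above all libraries of 8C-VE, and the log2 change was 1.79 ± 0.20 (limma adjusted p = 4.37e-05). With VPA alone it was at 0, 0.375 and 1.63 TPM, overlapping 8C-VE. The drugs differed from each other directly, since Stmn3 was lower with VPA alone than with EPZ6438 alone by a log2 change of -1.68 ± 0.24 (limma adjusted p = 3.75e-04), a call made for 2.06% of genes. Adding VPA to EPZ6438 gave a log2 change of -0.04, with a 95% interval from -0.57 to 0.49. Adding EPZ6438 to VPA raised it by 1.64 ± 0.28 (limma adjusted p = 8.73e-04). Over replicate numbers 4 to 7 that change was 1.09, with an adjusted p of 0.14.

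Syp followed Stmn3 with smaller changes. It was at 1.43, 2.67 and 4.33 TPM with EPZ6438 alone and at 0.340, 0.777 and 1.77 TPM with VPA alone. EPZ6438 alone changed it by 0.90 ± 0.21 (limma adjusted p = 0.0162), and EPZ6438 on top of VPA by 0.96 ± 0.21 (limma adjusted p = 0.00823), both below the 2-fold criterion. VPA on top of EPZ6438 gave 0.05, with a 95% interval from -0.42 to 0.52. Replicate numbers 4 to 6 of 8C-V (3.49, 4.33 and 3.41 TPM) were all above replicate numbers 1 to 3 (1.93, 1.91 and 1.43 TPM). In 8C the order was the opposite, with 4.18, 3.48 and 3.45 TPM in replicate numbers 1 to 3 and at most 2.71 TPM in the others. Over replicate numbers 4 to 7 the change with EPZ6438 on top of VPA was 0.52 (limma adjusted p = 0.394).

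Uchl1 and Basp1 were low with either drug alone and high with both. Uchl1 was at 0.189, 0.376 and 0.723 TPM in 8C-E, at 0.480, 1.08 and 1.77 TPM in 8C-V and at 2.48 TPM or more in 8C. Basp1 was at 0.0948, 0.285 and 0.588 TPM in 8C-E, at 0.103, 0.549 and 1.30 TPM in 8C-V and at 2.51 TPM or more in 8C. For both genes the libraries with both drugs were separate from those of each single-drug arm. In the fit without a minimum level, Uchl1 differed by 0.36 with VPA alone (limma adjusted p = 0.0271) and by 0.88 with EPZ6438 alone (limma adjusted p = 0.00202), and Basp1 by 0.11 (adjusted p = 0.701) and 0.41 (adjusted p = 0.171).

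Adding VPA to EPZ6438 called these 2 of the 9 genes higher, against 4.09% of all genes, and 2.5% in the fit without a minimum. Basp1 averaged 0.612 TPM with EPZ6438 alone and reached the minimum through the libraries with both drugs, while Uchl1 averaged 1.09 TPM with EPZ6438 alone. Uchl1 rose by 1.84 ± 0.30 (limma adjusted p = 7.81e-04) and Basp1 by 1.81 ± 0.25 (limma adjusted p = 1.64e-04). Adding EPZ6438 to VPA called 3 of the 9, against 3.97% of all genes, and 2.51% in the fit without a minimum. The 3 genes averaged under 1 TPM with VPA alone and reached the minimum through the libraries with both drugs. Uchl1 rose by 2.37 ± 0.27 (limma adjusted p = 2.11e-05) and Basp1 by 2.10 ± 0.22 (limma adjusted p = 7.84e-06), and Stmn3 was the third.

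Crmp1 lay between the patterns, with 0.419, 0.648 and 0.874 TPM with VPA alone and 0.411, 1.00 and 1.77 TPM with EPZ6438 alone. EPZ6438 on top of VPA changed Crmp1 by 0.94 ± 0.16 (limma adjusted p = 7.76e-04). VPA on top of EPZ6438 changed it by 0.65 ± 0.19 (limma adjusted p = 0.0398). With the replicate block that adjusted p was 0.0788.

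**Figure D2:**
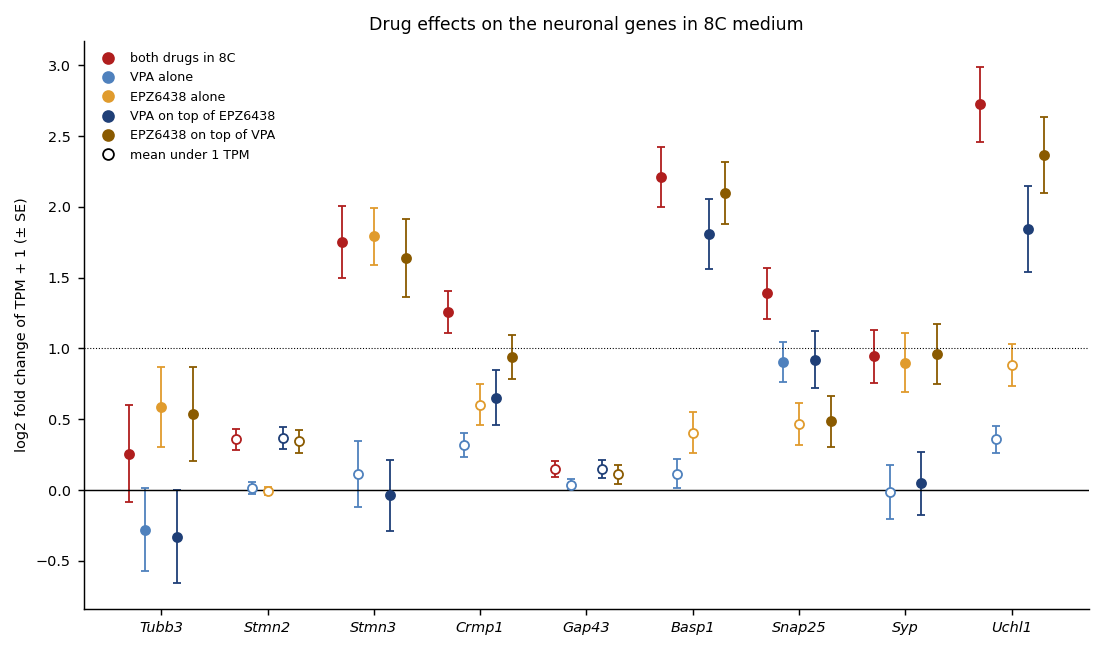
Log2 fold change of TPM + 1 with its SE for each gene and each drug comparison in 8C medium; open symbols are genes with a mean under 1 TPM, from the fit without that minimum, and the dotted line marks 2-fold. Stmn3 has similar changes wherever EPZ6438 was added, Snap25 has its larger changes where VPA was added, and Basp1 and Uchl1 have their large changes where the second drug joined the first.

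The departure from additivity on the log2 scale was tested over the 4 arms as the interaction of VPA and EPZ6438. It was called for 2 of the 9 genes, with the effect of VPA larger in the presence of EPZ6438, against 0.438% of genes called in that direction. Basp1 averaged under 1 TPM in the other 3 arms and Uchl1 was near or under it, so both reached the minimum through the 8C libraries, which also carry the interaction. In the fit without a minimum the same 2 of the 9 were called, against 0.368% of genes. The interaction was 1.69 ± 0.27 for Basp1 (limma adjusted p = 7.83e-04) and 1.48 ± 0.33 for Uchl1 (limma adjusted p = 0.0219). The other 5 genes tested had interactions from -0.15 to 0.34, none past the threshold, with 95% intervals that reached from -0.98 to 0.88. The call depends on the scale. With a pseudocount of 0.1, which stretches the lowest values, the interactions were 2.39 (adjusted p = 0.147) for Basp1 and 1.08 (adjusted p = 1) for Uchl1, and neither passed over replicate numbers 4 to 7, at 1.45 (adjusted p = 0.135) and 0.85 (adjusted p = 0.631). For Uchl1 it also missed the threshold without 8C-V replicate 1 (adjusted p = 0.0518) or without 8C-V replicate 3 (adjusted p = 0.0512).

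In ENR medium the drugs were added to a different base. The 9 genes were measured in 3 libraries with the drugs and 7 without. Only 3 genes reached a mean of 1 TPM over these 10 libraries, since the untreated libraries outnumbered the treated ones, and 1 of the 9, Snap25, was called higher, against 8.13% of genes. Without any one of the 3 treated libraries Snap25 itself was under the minimum and no member was called, and without any one of the untreated ones 2 or 3 were. Without the minimum 4 of the 9 were called higher, against 6.08% of genes. In 7 of the 9 all treated libraries lay above all untreated ones, as they did for 17.5% of the genes without a minimum level.

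Snap25 was at 2.59, 2.697 and 2.09 TPM in ENR+VE and at 0.334, 0.466 and 0.763 TPM (lowest, median and highest) in ENR. The groups did not overlap, and the log2 change was 1.23 ± 0.13 (limma adjusted p = 3.49e-05). After quantile normalization it was 0.77 (adjusted p = 0.00116), below 2-fold. Syp was at 2.58, 2.80 and 2.76 TPM against at most 1.46 TPM in ENR, with a log2 change of 0.70 ± 0.11 (limma adjusted p = 8.86e-04) that was 0.18 (adjusted p = 0.334) after quantile normalization.

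Stmn3 went from a level listed at 0 in 6 of 7 ENR libraries, and 0.221 TPM in the other, to 3.65, 2.43 and 2.71 TPM. In the fit without a minimum level its log2 change was 1.92 (limma adjusted p = 9.31e-07). Crmp1 was at 0.0899, 0.163 and 0.402 TPM in ENR and at 2.63, 2.82 and 2.04 TPM with the drugs, a change of 1.56 (limma adjusted p = 3.70e-06). Uchl1 was at 0, 0.259 and 0.776 TPM and rose to 2.54, 1.45 and 3.53 TPM, a change of 1.47 (limma adjusted p = 0.001). Basp1 was at 0.282 TPM or less in ENR and at 1.57, 1.08 and 0.921 TPM in ENR+VE, a change of 1.00, just short of 2-fold (limma adjusted p = 9.45e-05). Tubb3 was at 3.59, 3.06 and 3.63 TPM, inside the ENR range of 0.607 to 4.87 TPM.

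The size of the drug effect was then compared between the media, with the VPA and EPZ6438 doses of ENR+VE unknown. None of the 9 genes was called different by limma, against 0.58% of genes called in either direction, and 2 members were at an unadjusted p below 0.05, as were 6.44% of genes. Basp1 came closest, with an effect larger in 8C by 1.21 ± 0.29 and a limma adjusted p of 0.0501. That value passed the threshold without each of 4 single libraries, for example at 0.0139 without 8C replicate 7, and it reached 0.0166 without all replicate 7 libraries. The smallest number of members at 1 TPM or more in any library was 6 in ENR+VE and 7 in 8C, while no library of ENR had more than 2 and none of 8C-VE more than 3.

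Full 8C medium against ENR called 5 of the 9 genes higher, the same 5 as for both drugs in 8C. These comparisons share the 8C libraries. Of all genes tested 11.9% were called higher, and 7.8% in the fit without a minimum. Each of the 5 was under 1 TPM in every ENR library and reached the minimum through the 8C libraries. The log2 changes were 2.57 for Uchl1, 2.34 for Basp1, 2.29 for Stmn3, 1.43 for Snap25 and 1.40 for Crmp1, with limma adjusted p-values of 4.34e-06 or less. Syp changed by 0.71 (limma adjusted p = 0.00185), and by 0.15 (adjusted p = 0.499) after quantile normalization. The media without drugs, 8C-VE against ENR, gave no call among the 9 genes by limma, where 1.13% of genes were called higher and 2.07% lower. None of the 2 members tested there was at an unadjusted p below 0.05, and the levels of Snap25 were 0.524 ± 0.233 TPM in 8C-VE and 0.476 ± 0.138 TPM in ENR (mean ± SD, n = 7 each). Stmn3, under the minimum, was at 0.186 to 1.27 TPM in 8C-VE and listed at 0 in 6 of 7 ENR libraries, with a log2 change of 0.53 (limma adjusted p = 0.0509) in the fit without a minimum. Crmp1 was at 0.309 TPM on average in 8C-VE and 0.189 TPM in ENR (limma adjusted p = 0.291 in that fit).

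Leaving other components out of 8C changed no member by limma's call, whether bFGF, EGF, GSK3iXV or Pexmetinib, in comparisons where 0.00779%, 0.451%, 0% and 0.482% of genes were called. At an unadjusted p below 0.05 there were 0, 0, 2 and 1 members, against 5.56%, 12.7%, 6.53% and 13% of genes. The 2 genes without GSK3iXV were Uchl1 and Basp1. Uchl1 was at 1.95, 1.24 and 1.98 TPM, below the lowest 8C library at 2.48 TPM, with a log2 change of -1.43 ± 0.39 (limma adjusted p = 0.597). Basp1 was at 1.19, 1.30 and 1.30 TPM, below the lowest 8C library at 2.51 TPM, with a log2 change of -1.28 ± 0.30 (limma adjusted p = 0.357). Such a separation downward was seen for 2.25% of the genes. Snap25, at 3.94, 2.77 and 3.03 TPM without GSK3iXV, lay inside the 8C range. Uchl1 and Basp1 are also the genes with the interaction, in comparisons that share the 8C libraries. Without EGF Uchl1 was at 10.1, 5.09 and 20.7 TPM, the last being the highest value of any library.

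Enteroendocrine genes were measured beside the members. Of 27 markers of these cells, 5 were called higher and 1 lower with both drugs in 8C, where 9.06% of all genes were called higher and 1.62% lower. In ENR 5 were called higher and 1 lower, against 8.13% and 0.738% of all genes. In 8C Ghrl (ghrelin), Sst (somatostatin) and Scg5 rose by 2.50, 1.94 and 1.69 on the log2 scale, and Gcg (glucagon) changed by -3.95. The summed level of the 27 ranged from 1012 to 3016 TPM in 8C and from 746 to 2086 TPM in 8C-VE. In ENR+VE it ranged from 2464 to 2798 TPM against 1312 to 2180 TPM in ENR, where Ghrl and Sct rose by 2.64 and 1.92 and Neurog3, the regulator of endocrine fate, by 1.68. The part of these cells in the members' changes was not tested.

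With the single drugs Snap25 and Syp differed in their relation to the endocrine markers. With VPA alone 7 of the 27 markers were called lower and none higher, against 1.07% and 3.11% of all genes, and Chga, the chromogranin of endocrine granules, changed by -2.05 (limma adjusted p = 0.00179). Chga was at 9.34, 13.3 and 44.8 TPM in 8C-E against 43.4, 51.8 and 172 TPM in 8C-VE. Snap25 was higher in the same 8C-E libraries, at 1.38 TPM or more against 0.852 TPM or less. With EPZ6438 alone 9 markers were called higher and 1 lower, against 2.96% and 0.261% of all genes. Chga was then at 99.5, 203 and 382 TPM, and Syp and Stmn3 were higher in those libraries too. Over the 49 organoid libraries, as a description, the Pearson correlation with Chga on the log2 scale was 0.81 for Syp, 0.63 for Stmn3, 0.61 for Tubb3, 0.50 for Crmp1, 0.47 for Uchl1, 0.46 for Basp1 and 0.18 for Snap25, so that Syp was above and Snap25 below a middle group of 5.

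**Figure D3:**
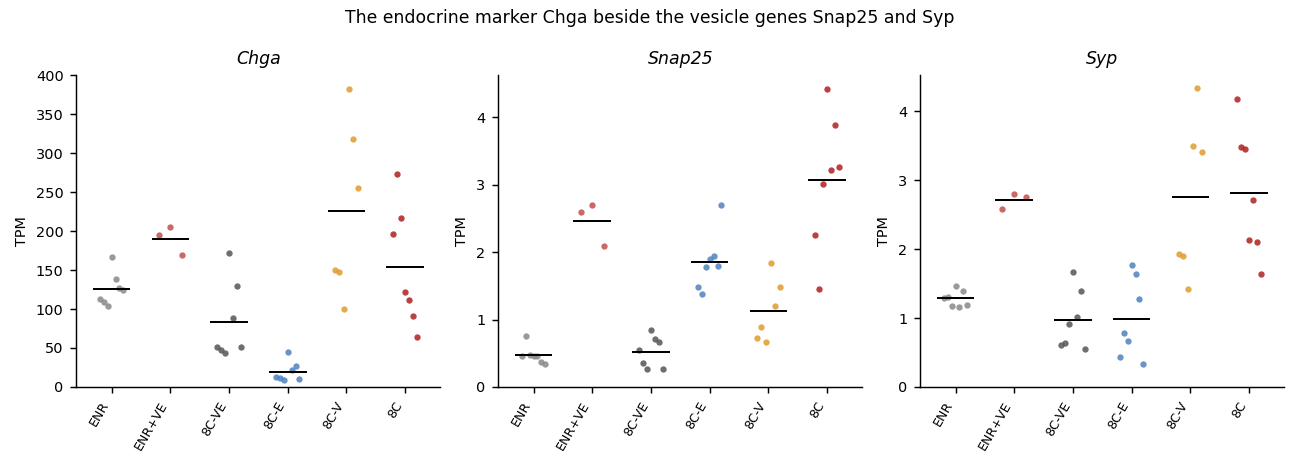
Level (TPM, linear axes) of the endocrine granule gene Chga and of Snap25 and Syp in each library of the 6 drug arms, with the mean as a bar. In 8C-E Chga is lowest while Snap25 is above 8C-VE, whereas Syp in 8C-E overlaps 8C-VE.

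A wider list of 52 other neuronal genes gave the setting. Like the members, it was chosen with earlier results of these data known, so its counts are a description and no independent support. With both drugs in 8C 24 of the 52 reached the minimum level, and 13 were called higher and none lower, against 9.06% and 1.62% of all genes. The 28 under the minimum were left out of that count, and a gene near 0 without drugs passes it mainly through its treated libraries. In the fit without a minimum 14 of the 52 were called higher, against 5.82% of genes. In ENR 21 reached the minimum, and 9 were called higher and none lower, against 8.13% and 0.738% of all genes. Without the minimum 12 of 50 were called higher there, against 6.08% of genes. Bex1, a small adaptor protein of neurons, was at 1.34 to 21.3 TPM in 8C-VE and 119 to 311 TPM in 8C, a log2 change of 4.95. The synuclein Sncb changed by 3.04 and Bex2 by 3.05. In ENR the largest were Bex1 at 5.03, Bex2 at 2.82 and the neurofilaments Nefl at 2.01 and Nefm at 1.97. Ret, a receptor used by enteric neurons, rose by 2.33 in 8C and by 1.40 in ENR, while the other enteric neuron markers did not reach the minimum level in these comparisons.

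Of 21 relatives of the members, many but not all of them used in many tissues, 19 were tested with both drugs in 8C. Among them 4 were called higher and none lower, against 9.06% and 1.62% of all genes, and their median log2 change was 0.07. The tubulins Tubb5 and Tubb4b were at 919 and 1193 TPM in 8C and at 985 and 1352 TPM in 8C-VE, far above Tubb3. The called relatives were Tubb6 at 3.56, Dpysl3 at 2.37, Dpysl5 at 1.70 and Tubb4a at 1.01. Dpysl3 and Dpysl5 belong with Crmp1 to the collapsin response mediator family, and the list is not free of neuronal genes. In ENR Dpysl3 rose by 2.49, Dpysl5 by 2.41, Tubb6 by 1.93 and Snap47 by 1.18. Dpysl5 was not near 0 without drugs, at 11.6 TPM on average in 8C-VE against 34.1 TPM in 8C.

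The repressors themselves were measured too. Of 12 subunits of the RE1 silencing complex all were tested, and none was called by limma with both drugs in 8C or in ENR, where 10.7% and 8.87% of all genes were called in either direction. At that share about 1 of 12 would be called, so a count of 0 does not set these genes apart. At an unadjusted p below 0.05 there were 3 in each medium, against 34.2% of all genes in 8C and 31.3% in ENR. Rest was at 17.1 TPM in 8C and 19.1 TPM in 8C-VE. None of 11 genes of Polycomb repressive complex 2 was called by limma in either medium, with 2 at an unadjusted p below 0.05 in each, and Ezh2 was at 41.8 TPM in 8C and 50.2 TPM in 8C-VE. These are RNA levels and say nothing of the enzyme activity that the drugs inhibit.

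**Figure D4:**
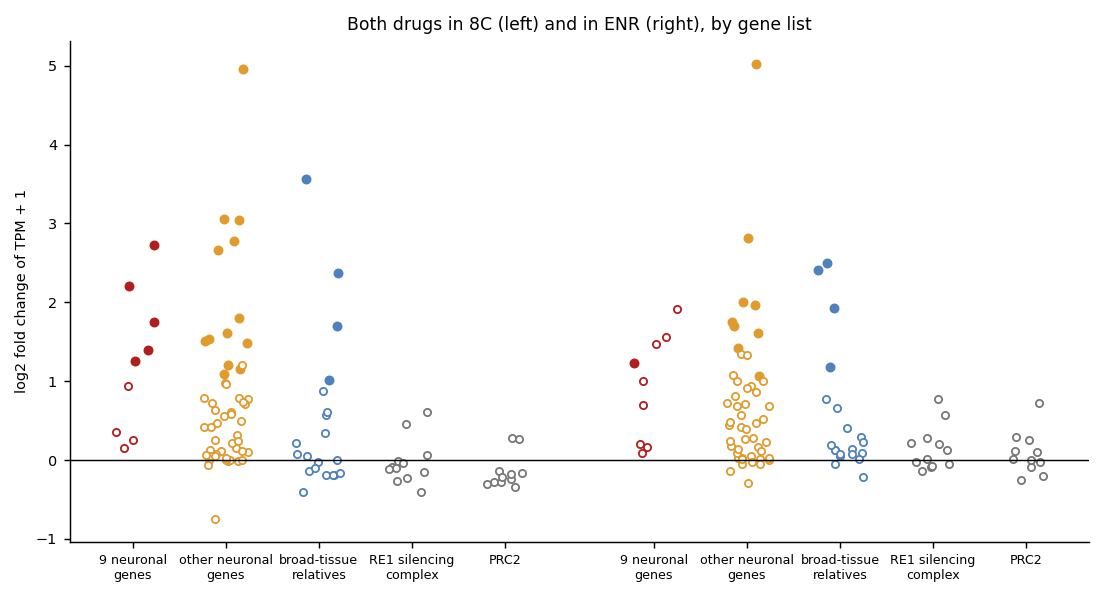
Log2 fold change of TPM + 1 with both drugs in 8C (left) and in ENR (right) for the genes of 5 lists; filled symbols are called genes, and open ones include genes under 1 TPM, from the fit without that minimum. The 9 neuronal genes and the 52 other neuronal genes lie mostly above 0, and the subunits of the RE1 silencing complex and of Polycomb repressive complex 2 (PRC2) lie around 0 with no filled symbol.

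The members also varied together across the organoid libraries. The 7 members that averaged 1 TPM or more were averaged as z-scores of log2(TPM + 1), and the correlation of each with the mean of the others ran from 0.48 for Tubb3 and 0.72 for Snap25 to 0.92 for Crmp1. The 5 genes of 12618 whose pattern was most like the mean were Bex2 (Pearson r = 0.95), Calca (0.95), Gpx8 (0.94), Mageh1 (0.94) and Cdk5r2 (0.94) over 49 libraries. Calca encodes the neuropeptide CGRP, and Cdk5r2 an activator of the neuronal kinase CDK5, while Gpx8 encodes a peroxidase of the endoplasmic reticulum. Bex2 was at 11.4 TPM in 8C-VE, 25.1 TPM in 8C-E, 41.8 TPM in 8C-V and 104 TPM in 8C. Libraries share their culture condition, so these values describe a pattern over few conditions.

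Crypt and organoid libraries were not compared by level, since mitochondrial genes took 10.6% to 48.4% of the TPM in crypts and 1.52% to 6.64% in organoids. The genes listed also summed to 819346 to 910935 TPM in crypt libraries, against 983801 to 988144 TPM in organoid libraries, so crypt libraries differed in their totals. Syp alone among the members averaged 1 TPM or more in the 18 crypt libraries. Syp was not called by limma over the days averaged, where 3.54% of genes were called higher. It was not called on days 1, 2, 3 or 5 either, when 0.00926%, 8.31%, 31.6% and 0.0185% of genes were, and no day had an unadjusted p below 0.05. Averaged over days its log2 change was 0.48 ± 0.23 (limma adjusted p = 0.0957), beside a median change of 0.36 over all genes. After quantile normalization the change was 0.05 (adjusted p = 0.907). Irradiated crypts had 1.61 and 0.715 TPM of Syp on day 3, and drug-treated ones 3.97 and 2.09 TPM, so the pairs did not overlap, as was so for 71.1% of genes on that day. In unirradiated crypts Syp was at 3.65 and 1.76 TPM.

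Basp1 was at 0.368 and 0.228 TPM in irradiated crypts on day 3 and at 1.52 and 1.91 TPM in those given the drugs. In the fit without a minimum level the log2 change was 1.06 (limma adjusted p = 0.00214), and it was the only one of the 9 called on that day, when 15% of the genes in that fit were called higher and the median change over its genes was 0.19. With quantile normalization of the same fit, chosen after the data were seen, Basp1 changed by 0.59 (limma adjusted p = 0.0551) and was not called. With mitochondrial genes left out of that fit it changed by 1.28 (limma adjusted p = 0.00579). On the other days all values of Basp1 after irradiation were 0.521 TPM or less, with or without drugs, and in unirradiated crypts they were 0.845 and 0.544 TPM. Snap25 was highest on day 2 with the drugs, at 1.38 and 2.12 TPM against 0.445 and 0.916 TPM without them. Uchl1, the largest responder in organoids, was at 0.328 and 0.221 TPM with the drugs on day 3 and 0.102 and 0.176 TPM without. Its highest crypt value, 2.45 TPM, was in 1 of the 2 irradiated libraries of day 2 without drugs, and the other was at 0.300 TPM. Stmn3, Crmp1, Tubb3, Stmn2 and Gap43 stayed below 1 TPM in all 18 libraries.

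Other cell types were present in the crypt libraries. The summed level of 8 immune markers was 35.2 and 58.0 TPM in drug-treated crypts on day 3 and 24.9 and 64.7 TPM in the irradiated ones. Of these markers Ptprc, carried by leukocytes in general, was called higher with the drugs (1.05, limma adjusted p = 0.0182), as were 31.6% of all genes tested on that day. The groups did not overlap, with the drugs higher, for 5 of the 8, against 53% of genes without a minimum level. Enteric neuron markers summed to 2.02 and 2.40 TPM with the drugs and 1.099 and 1.11 TPM without. Enteric glia markers summed to 7.82 and 10.4 TPM against 2.705 and 2.72 TPM, and Erbb3, which epithelium also uses, was the 1 called (1.74, limma adjusted p = 9.71e-04). Markers of fibroblasts and muscle summed to 8.65 and 23.1 TPM with the drugs on day 3 and 4.73 and 5.95 TPM without, and endothelial markers to 1.11 and 1.16 TPM against 0.226 and 0.288 TPM. Their part in the values of Basp1 and Syp was not tested. Irradiation alone called no change of Syp by limma on days 1, 2, 3 or 5, when 6.92%, 30.8%, 53.8% and 15.8% of genes were called, with no day at an unadjusted p below 0.05.

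**Figure D5:**
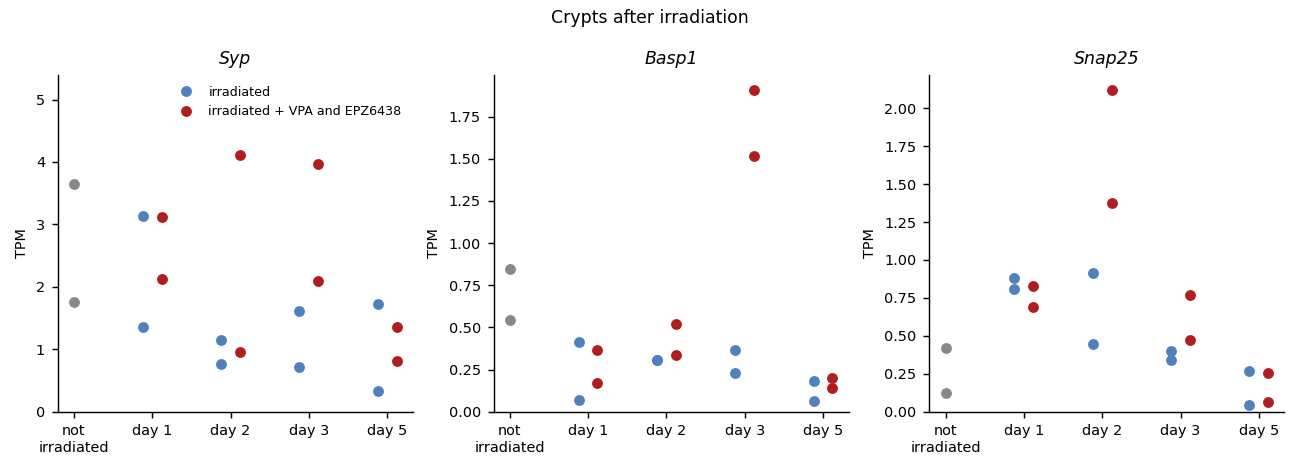
Level (TPM, linear axes) of Syp, Basp1 and Snap25 in each crypt library, unirradiated or 1, 2, 3 and 5 days after irradiation without or with VPA and EPZ6438. Basp1 is apart on day 3 with the drugs, at 1.52 and 1.91 TPM against 0.368 TPM or less without.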

How the data were processed

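Bulk RNA-seq of 49 organoid and 18 crypt libraries was analysed. According to the submitters' processing notes, reads were trimmed with Trimmomatic 0.39, mapped to mm10 with STAR 2.7.3a and counted with featureCounts, and the authors deposited TPM values in 1 table. Whether counting used strand is not given in the sources used here. TPM keeps no read number, so the depth is unknown and counting error could not be estimated. Crypts and organoids were tested apart.

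In R 4.3.3, log2(TPM + 1) was tested with limma 3.58.1 (lmFit, eBayes with trend and robust) on genes whose mean in the compared libraries was 1 TPM or more, with calls at an adjusted p below 0.05 and at least 2-fold, with only the groups compared in a fit for organoids and all 9 groups in a fit for crypts. The fits were tested on simulated data. The members and the gene lists were chosen with earlier results of these data known. The genes named from the other lists are those called with both drugs in 8C or in ENR, at most the 4 largest changes per list and comparison, besides relatives and repressors given by level and Chga, which was chosen after its values were seen. Some genes of these lists are not reported here by name. Replicate numbers were taken to pair samples where, with 3 or more pairs, every pair of same-numbered libraries had deviations correlated over 0.1. This held for VPA alone, EPZ6438 alone, VPA on top of EPZ6438, VPA against EPZ6438 and 8C-VE against ENR. The main fits had no pairing term even there, so their SE and p-values ignore it. Pairing entered only through the replicate block, an alternative fit. The alternatives were a pseudocount of 0.1, no minimum level, quantile normalization, no minimum fold, the replicate block, all groups in the fit, replicate numbers 1 to 3 or 4 to 7 alone (groups of 3 libraries kept all of theirs in both), each replicate left out and, for crypts, mitochondrial genes left out. Leaving out replicate 7 libraries, and other scalings for Basp1 in crypts, were added after the data were seen. Positions are from GENCODE M21 (mm10).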

Additional observations from a re-analysis of the deposited data

Results flagged for a closer look

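In 9 of 42 groups of 6 or 7 libraries, 1 library lay far from the others by Dixon's criterion, which chance alone meets in about 1 of 20 groups. In ENR the far values were Tubb3 at 0.607 TPM in replicate 7, Snap25 at 0.763 TPM in replicate 2, Stmn3 at 0.221 TPM in replicate 6 and Gap43 at 0.189 TPM in replicate 5. Stmn3 and Gap43 were each listed at 0 in the other 6 ENR libraries, as was Gap43 in the other 6 of 8C-E, and for such single detections the rate of 1 in 20 does not hold. In 8C-E they were Tubb3 at 0.316 TPM and Stmn2 at 0.211 TPM in replicate 7, and Gap43 at 0.202 TPM in replicate 4. In 8C-VE they were Stmn2 at 0.129 TPM in replicate 7 and Crmp1 at 0.510 TPM in replicate 5. Replicate 7 supplied 4 of the 9.

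The effect of VPA differed between cultures with and without EPZ6438 by 1.69 on the log2 scale for Basp1 and by 1.48 for Uchl1, as tested by the interaction in limma (adjusted p = 7.83e-04 and 0.0219). Neither passed with a pseudocount of 0.1, at 2.39 (adjusted p = 0.147) for Basp1 and 1.08 (adjusted p = 1) for Uchl1, or over replicate numbers 4 to 7, at 1.45 (adjusted p = 0.135) and 0.85 (adjusted p = 0.631).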

How the results depend on the processing

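For both drugs in 8C the number of called members was 5, and 3 after quantile normalization; leaving out 1 library gave 5 to 6. For both drugs in ENR (1 called) it was 2 with a pseudocount of 0.1, 4 without a minimum level, 0 after quantile normalization, 2 without a minimum fold, 4 over replicate numbers 1 to 3, 4 over replicate numbers 4 to 7 of ENR with the 3 ENR+VE libraries kept, and 3 without replicate 7 libraries. Leaving out 1 library there gave 0 to 3, with 0 without each ENR+VE library and 2 or 3 without each ENR library. With a pseudocount of 0.1 and without a minimum fold, the counts were 1 and 1 for VPA alone, 2 and 2 for EPZ6438 alone, 4 and 4 for VPA on top of EPZ6438, 5 and 5 for EPZ6438 on top of VPA, and 2 and 2 for VPA against EPZ6438. Over replicate numbers 4 to 7 EPZ6438 alone and VPA against EPZ6438 each gave 2, and EGF omission gave 1 with numbers 4 to 7 of 8C against all 3 libraries without EGF. Over replicate numbers 1 to 3 EPZ6438 on top of VPA gave 6, GSK3iXV omission 2 and Pexmetinib omission 1. The interaction gave 0 with a pseudocount of 0.1, 1 after quantile normalization and 0 over replicate numbers 4 to 7. The drug effect by medium gave 1 without a minimum level, with all groups or without replicate 7 libraries, and 2 over replicate numbers 1 to 3. GSK3iXV omission gave 2 with all groups in the fit, and day 3 crypts gave 1 without a minimum level or with only the groups compared. The Tubb3 change with both drugs in 8C was -0.18 after quantile normalization and -0.25 over replicate numbers 4 to 7. The cause was not tested.

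Leaving out 1 library gave 1 to 2 members for EPZ6438 alone (2 without 8C-V replicate 3), 1 to 2 for VPA against EPZ6438 (2 without 8C-V replicate 1 or 3), 1 to 2 for the interaction (1 without 8C-V replicate 1 or 3), and 0 to 1 for the drug effect by medium (1 without 8C replicate 2, 4 or 7 or 8C-VE replicate 7). VPA on top of EPZ6438 kept 2 to 3 and EPZ6438 on top of VPA 3 to 4. With the replicate block, GSK3iXV omission called 2 members and 725 genes against 0 of each without it, although same-numbered libraries there correlated at -0.15 on average, and the block changed no other count of members. Quantile normalization moved the median of all genes from 0.09 to -0.06 for both drugs in ENR and from 0.69 to -0.05 on day 3 in crypts. The share of calls that were higher went from 84.9% to 72.8% for both drugs in 8C and from 91.7% to 75.4% in ENR. Levels near 0 limit most members in the arms without drugs, because TPM gives no read number.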
